A study of Danio rerio with 2 samples.

Results

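The genes described here encode the proteins of the cytosolic ribosome. They were taken from the deposited table by symbol: names beginning with rpl or rps and a number, or with rplp0, rplp1 or rplp2. Of 92 rows that fit this pattern, 14 were left out because they are kinases or relatives of ribosomal proteins (the rps6k genes, rps19bp1, rpl7l1 and rpl22l1). The remaining 78 rows, of 22849 in the table, are 46 of the large subunit and 32 of the small subunit. All 78 reached a summed value of 10, the smallest being 235, so none was lost to this filter, which 21764 genes of the whole table passed.

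RNA came from whole wild-type larvae of zebrafish strain AB at 6 days post fertilization (dpf). From 3 to 6 dpf the larvae were kept in 1 µM benzo[a]pyrene (BaP) or, as controls, in 0.1% dimethyl sulfoxide (DMSO), its solvent. BaP is a polycyclic aromatic hydrocarbon that activates the aryl hydrocarbon receptor. Each treatment is 1 stranded mRNA library made from 4 pooled biological replicates, so no difference below has a replicate check, and the spread between animals is not measured. The values are normalized read counts that the authors rounded to whole numbers, and they sum to 13443263 with DMSO and 11968060 with BaP. They are not divided by transcript length, so where genes are ordered by value the order is one of read counts and not of transcript levels.

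Ribosomes translate mRNA into protein. The small subunit holds the mRNA and reads its codons, and the large subunit joins the amino acids at its peptidyl transferase centre and passes the growing chain out through a tunnel. Each ribosome carries, with few exceptions, 1 copy of each ribosomal protein beside the ribosomal RNAs. In vertebrates the mRNAs of these proteins begin with a tract of pyrimidines, the TOP motif, through which the growth kinase mTOR and the RNA-binding protein LARP1 control their translation and stability. Ribosomal proteins left without a ribosome are known, mainly from mammals, to bind the ubiquitin ligase MDM2.

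Ribosomal protein genes were lower in the BaP library as a body, by much the same proportion in nearly every member. Summed over the 78 rows, the normalized read count was 925922 with DMSO and 664039 with BaP, which is 6.89% and 5.55% of all values. The ratio of the sums, BaP over DMSO, was 0.717, with a 95% counting interval of 0.715 to 0.719. Of the 78 rows, 75 lay below a ratio of 1, where 56.4% of all 21764 genes did. The median log2 ratio of the members was -0.47 (a ratio of 0.723), against -0.06 over all genes tested. The intervals here and below rest on reads estimated from the low values, and cover counting error only.

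The shift was modest in size and similar across members. A value at least 20% lower was found for 69 members, against 24.1% of all genes. A value at least 25% higher, the same fold in the other direction, was found for 1 member, against 17.7%. Among other genes of very high value, here and below all genes outside the symbol rule, the share was larger. At a mean value of at least 10000, 63.7% of other genes were at least 20% lower and 43.1% at least 1.5-fold lower. All 32 members of that value were at least 20% lower, and 1 of them by at least 1.5-fold. At a fold of at least 1.5 only 2 members, rplp2l and rpl3, were lower (11.5% of all genes) and 1 row, a second gene model named rpl37, was higher (9.12%). Under each of 5 other scalings or trend corrections 0 members were lower by 1.5-fold. At 2-fold, 0 members were lower (4.36% of all genes) and that 1 row was higher (3.75%). Over all genes the split at 1.5-fold was 1984 higher and 2501 lower as deposited, and 2931 higher and 1642 lower when each library was divided by its total.

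**Figure D1:**
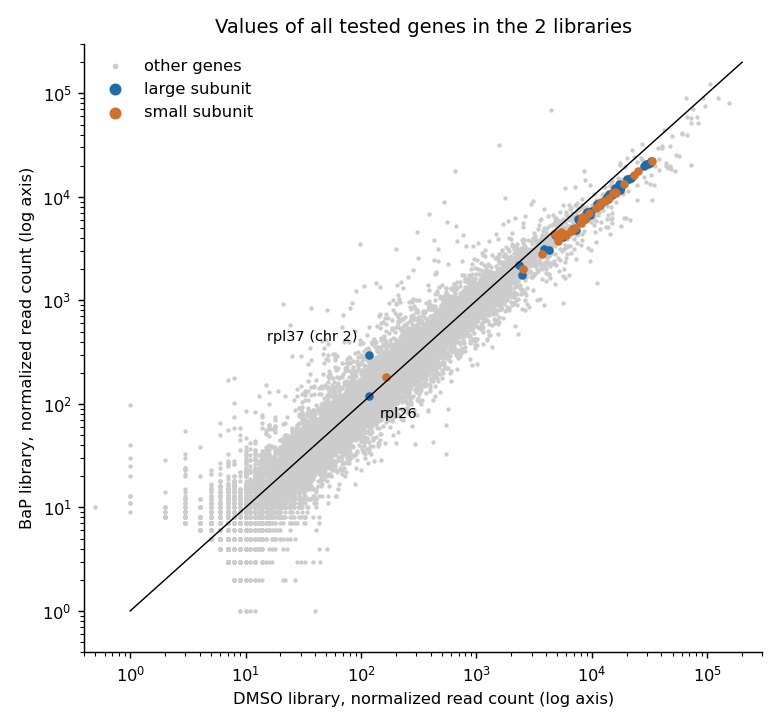
Normalized read count of each tested gene in the DMSO library (x) and the BaP library (y), both on log axes, with a value of 0 drawn at the edge and the line marking equality. Of the ribosomal protein rows, 75 lie in a narrow band just below the line and 3 of low value, among them the chromosome 2 row of rpl37 and rpl26, lie on or above it.

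A gap in value separated 75 rows from the other 3, and the description of evenness uses it, although the line was drawn at a mean value of 1000 after the values had been seen. The 75 rows had normalized read counts from 2332 to 33315 (median 9880) in the DMSO library and from 1740 to 22378 (median 7242) in the BaP library. As deposited, all 75 were lower in the BaP library, and the counting interval of each lay wholly below a ratio of 1. Their log2 ratios had a standard deviation of 0.0971 and an interquartile range of 0.10. For comparison, the 710 other genes in the same range of values had a standard deviation of 0.734 and an interquartile range of 0.50. Of these 710 genes, 68.9% lay below a ratio of 1. Of the 75, 69 (92%) lay within 0.15 of their median, where 36.1% of those 710 genes lay within 0.15 of theirs. Across the 75 genes, log2 values in both libraries had a Pearson correlation of 0.995, a description over genes that share the same 2 libraries.

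The members still differed from each other by more than counting error. Counting error alone would give these 75 log2 ratios a standard deviation of 0.0185, and the observed one was 5.24 times that. The range ran from -0.60 for rplp2l to -0.08 for rpl38.

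**Figure D2:**
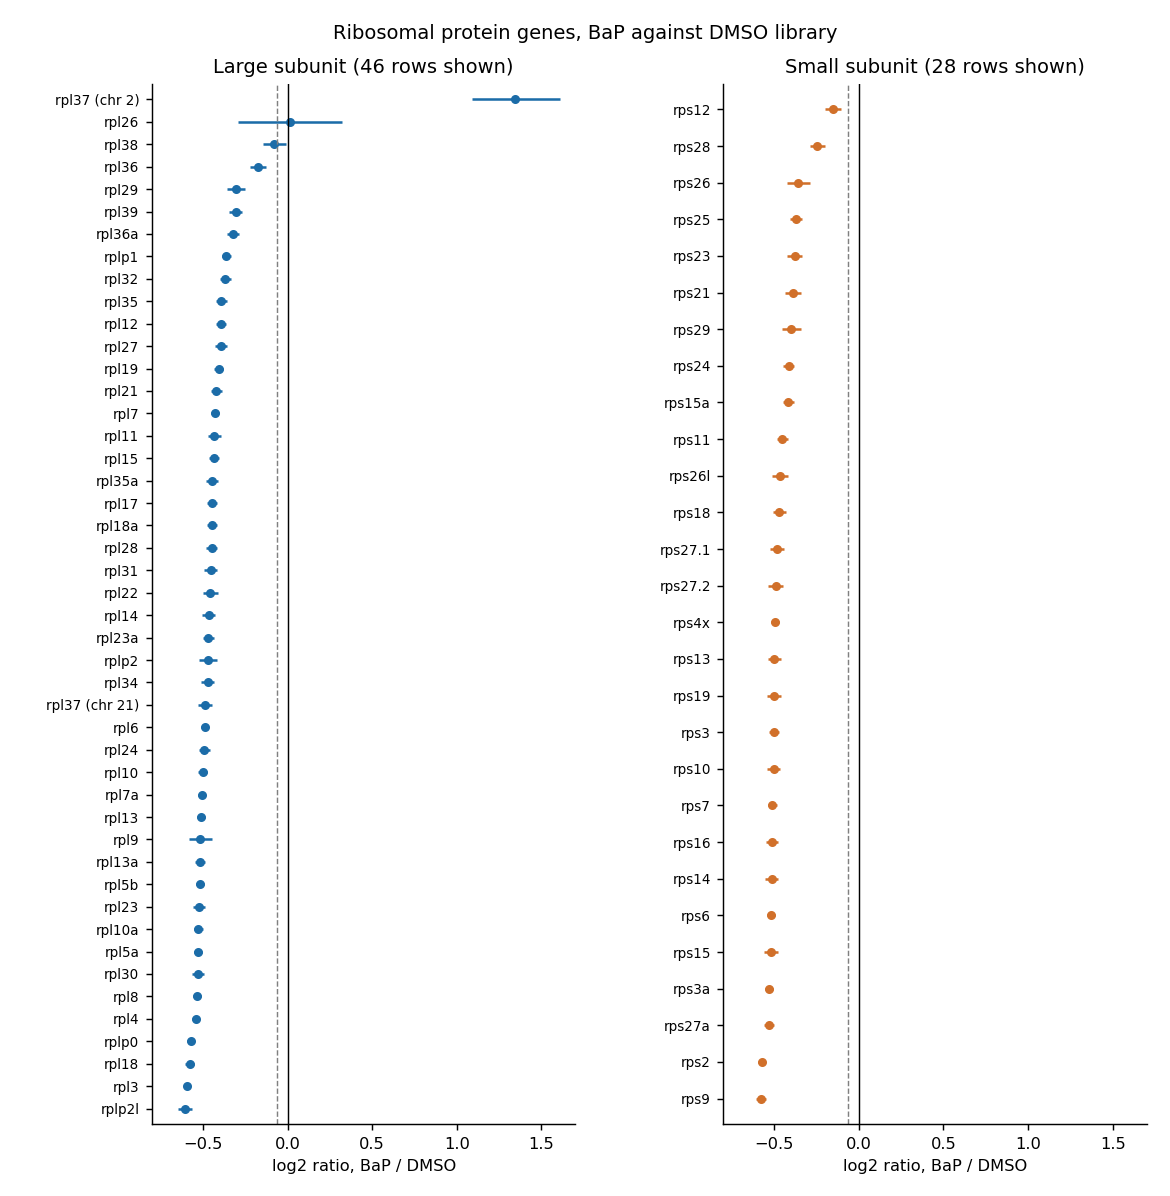
Log2 ratio, BaP over DMSO, of ribosomal protein rows (points) with its 95% counting interval (bars), large subunit left and small subunit right; the solid line marks equality and the dashed line the median of all tested genes, -0.06. Most rows lie between -0.6 and -0.3, with rpl38, rpl36, rps12 and rps28 nearer to equality and the chromosome 2 row of rpl37 far above it.

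Both subunits were shifted by nearly the same amount. The 46 rows of the large subunit had a median log2 ratio of -0.46 and the 32 rows of the small subunit one of -0.49, a difference of 0.026. Summed values gave a ratio of 0.718 for the large subunit and 0.715 for the small one. Of the large subunit 40 rows (87%) were at least 20% lower, and of the small subunit 29 (90.6%), against 24.1% of all genes. The interquartile range of the log2 ratios within each subunit was 0.12, wider than the difference between their medians.

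Around the peptidyl transferase centre all 3 members lay below the median of the members. The gene rpl3, whose product reaches into the centre, had 31984 normalized reads with DMSO and 21195 with BaP (33.7% lower, 95% interval of the ratio 0.654 to 0.672). The gene rpl8 had 17880 and 12335, and rpl10, whose product is among the last to join the large subunit, had 14808 and 10462. Their log2 ratios were -0.59, -0.54 and -0.50, and the counting intervals of rpl3 and rpl10 did not overlap.

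The exit tunnel and its rim gave a wider picture. The gene rpl4, which encodes a wall protein of the tunnel, had 30408 and 20869 normalized reads in the DMSO and BaP libraries (31.4% lower), and rpl17, another wall protein gene, 11854 and 8707. The third wall protein gene, rpl39, had 7510 and 6072, only 19.2% lower (interval 0.787 to 0.830). Of the rim, rpl23a was 27.7% lower, rpl31 27.0%, rpl19 24.6% and rpl35 23.8%. All 7 were lower, and rpl39, which encodes one of the smallest proteins of the ribosome, was the least so.

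The P stalk, which recruits and activates translation factors, held both a member at the low end and one near the upper part of the range. Its base protein gene rplp0 had 32763 normalized reads with DMSO and 22023 with BaP (32.8% lower). Of the acidic stalk proteins, rplp1 had 17261 and 13439 (22.1% lower), rplp2 4229 and 3055 (27.8% lower) and rplp2l 7258 and 4773 (34.2% lower, the lowest ratio of all members). The gene rpl12, for the stalk base, had 13980 and 10657. In the mobile L1 stalk at the other side of the subunit, rpl10a had 16421 and 11384 (30.7% lower).

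The ribonucleoprotein of the small 5S RNA, known from mammals as the particle that binds MDM2 when ribosome assembly fails, followed the rest. The copies rpl5a and rpl5b had 17445 and 12090, and 21753 and 15174 normalized reads in the DMSO and BaP libraries. Their partner rpl11 had 8436 and 6250. These are 30.7%, 30.2% and 25.9% lower.

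Of the small subunit, the 3 genes for proteins at the mRNA entry had a median log2 ratio of -0.57, the lowest of the roles described here. Like the 3 of the peptidyl transferase centre, they all had mean values above 10000. The 32 members of such value had a median of -0.51, so role and value are not separated here. The gene rps2 had the highest value of all members, 33315 normalized reads with DMSO and 22378 with BaP (32.8% lower). The gene rps9 had 16264 and 10891 (33.0% lower) and rps3 15294 and 10814 (29.3% lower). At the decoding centre rps23 had 5435 and 4181 (23.1% lower) and rps15 6651 and 4636 (30.3% lower). The interval of rps23, 0.745 to 0.794 in ratio, lay above that of rps15.

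On the platform, where the mRNA leaves, rps3a had 23284 normalized reads with DMSO and 16131 with BaP, and rps14 had 8117 and 5679. They were lower by 30.7% and 30.0%. The gene rps28 stood apart from these with 5441 and 4589 (15.7% lower, interval 0.818 to 0.870).

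Other members known for functions of their own were lower as well. The gene rps6, whose product is phosphorylated by S6 kinase under mTOR, had 18952 and 13229 normalized reads in the DMSO and BaP libraries. The gene rps27a, which encodes a small subunit protein fused to ubiquitin, had 13930 and 9650. The gene rps19, the one most often mutated in the human red cell disorder Diamond-Blackfan anemia, had 7137 and 5050. The 3 genes were lower by 30.2%, 30.7% and 29.2%. The gene rps16, whose product touches the transfer RNA in the peptidyl site, was 30.0% lower, rpl18 33.0%, rpl30 30.8% and rpl6, among the 5 members of highest value, 28.8%.

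The least shifted members above that line were rpl38, rps12 and rpl36. The gene rpl38, whose product is known from mice for its role in translating Hox mRNAs, had 2332 normalized reads with DMSO and 2210 with BaP, a ratio of 0.948 with a counting interval of 0.905 to 0.993. The gene rps12 had 4830 and 4339, and rpl36 had 4782 and 4243, which are 10.2% and 11.3% lower. Together with rps28, rpl29 (3860 and 3130) and rpl39, these are the 6 of the 75 that were less than 20% lower, and rpl36a, with 8974 and 7178 at a ratio of 0.7999, lay just inside that limit. Dividing each library by its total moves every log2 ratio up by 0.17 and the median of all genes from -0.06 to 0.10. It turned rpl38 to 0.09 and rps12 to 0.01. Of the 78 rows 73 then lay below a ratio of 1, where 37.8% of all genes did. In the small subunit rps26, rps25, rps23 and rps21 were between 21.9% and 23.6% lower.

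How far a member was shifted varied with its value. Of the 75, the 25 with the highest values had a median log2 ratio of -0.52 (standard deviation 0.0605), the next 25 one of -0.45 (0.0531) and the 25 with the lowest values one of -0.46 (0.131). Among these last 25, rpl9, the lowest of the 75 in the BaP library, had 2486 normalized reads with DMSO and 1740 with BaP (30.0% lower). The Spearman correlation of the log2 ratio with the mean value was -0.50 over the 75 genes, and -0.28 over the 710 other genes in that range. Gene span, measured on the chromosome with introns, gave a correlation of -0.06 with the log2 ratio. Transcript length was not examined. These are descriptions across genes of the same 2 libraries, and the mean value shares its counts with the ratio.

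Other genes of very high value were lower in the BaP library by a similar amount. They are not a separate background. Among them are rpsa and rack1, also of the ribosome, and the elongation factor genes eef1a1l1 and eef2b. Muscle, pancreas and keratinocyte markers such as actc1b, prss1 and krt4 are among them too. The running median of the other genes drew on the same rows, and the part of these genes in it was not tested. At a mean value of at least 10000, 102 other genes had a median log2 ratio of -0.49 with a standard deviation of 0.884, and 32 members one of -0.51 with a standard deviation of 0.0578. Between 3000 and 10000, 344 other genes had a median of -0.20 (0.771) and 40 members one of -0.45 (0.0941). With a running median over genes ordered by value subtracted, the members' median was -0.11. It was -0.21 where that running median was taken from the other genes only. At the top of the range its window reached genes of lower value. Above a mean of 10000 the running median of the other genes went no lower than -0.33, against -0.49 for the 102 other genes there. For the 32 members of that value, the subtraction thus took away less than the median shift of other genes of like value. After the 2 subtractions 68 and 73 of the 78 members lay below a ratio of 1, where 49.6% and 49.8% of all genes did. The subtraction itself fixes that share of all genes, so it is no independent background. The share among other genes of like value was not examined. The size of the shift thus depends on the scale chosen, while the standard deviation of the 75 was 0.0931 and 0.0860 under these corrections.

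The 3 rows of low value were the members whose counting intervals did not lie wholly below 1, and for 2 of them the name is uncertain. The name of the remaining one is not in doubt and its interval held a ratio of 1, and it is not reported here by name. The row named rpl37 on chromosome 2 (ENSDARG00000076360, 49860722 to 49871576, plus strand, in the deposited coordinates) had 116 normalized reads with DMSO and 295 with BaP. That is 2.54-fold higher (2.13 to 3.06). The deposited annotation describes it as ribosomal protein L37, whereas another annotation gives this gene ID the name of COA1, an assembly factor of cytochrome c oxidase. A second row named rpl37, on chromosome 21 (ENSDARG00000034291, 5194602 to 5205653, minus strand), had 6824 and 4866 normalized reads, a ratio of 0.713 (0.693 to 0.734). So the row that carries nearly all rpl37 reads was lower with the other members. The row that was higher made up 1.67% of the pair's value with DMSO and 5.72% with BaP.

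Next to the chromosome 2 row lies blvra, which encodes biliverdin reductase A, the enzyme that turns biliverdin into bilirubin. It lies on the opposite strand and overlaps the rpl37 row by 2 bases. It had 52 normalized reads with DMSO and 377 with BaP, 7.25-fold higher (5.66 to 9.42). Whether reads of one entered the count of the other was not tested.

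The row named rpl26 (ENSDARG00000101794, chromosome 14, 52565660 to 52576034, plus strand) had 117 and 118 normalized reads in the DMSO and BaP libraries. Its protein description in the deposited table is a subunit of the V-type proton ATPase, and the other annotation names it atp6v0e1. A row of the opposite strand, CU469526.1, shares 2559 bases with it and had 113 and 118 normalized reads. Neither showed a difference at this depth. Without the 2 rows of uncertain name, the standard deviation of the log2 ratios was 0.118 in place of 0.239, and 0 members were higher by 1.5-fold or more.

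Near copies of a gene can share reads, so how the authors' counting divided them is uncertain. The copies rpl5a and rpl5b differed by 0.0094 in log2 ratio. The gene rps27.1 had 6611 and 4729 normalized reads in the DMSO and BaP libraries and rps27.2 had 6017 and 4278, a difference of 0.0088 in log2 ratio. Wider apart were rps26 (2548 and 1989) and rps26l (5130 and 3718), at 0.107, and the stalk genes rplp2 and rplp2l, at 0.136. In these 4 pairs both copies were lower in the BaP library, and they are not all the near copies among the members.

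**Figure D3:**
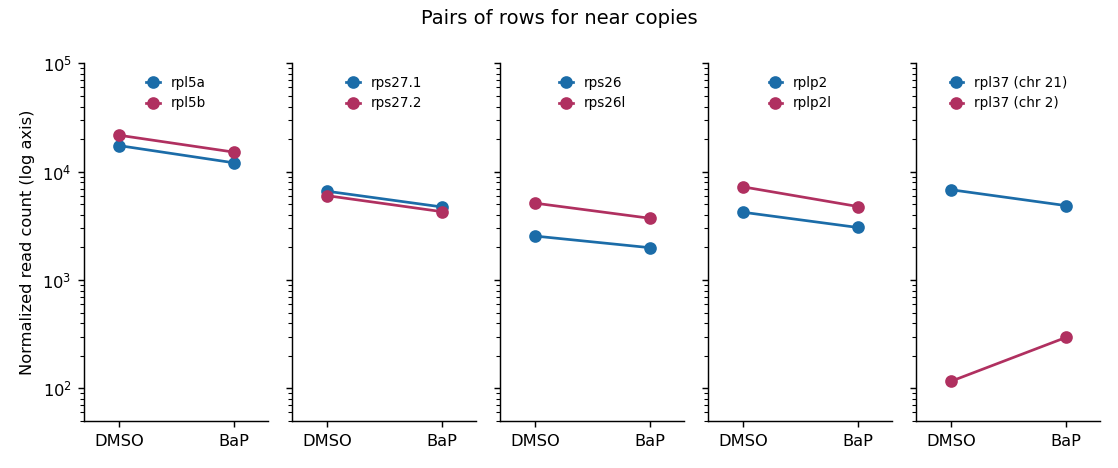
Normalized read count in the DMSO and BaP libraries (log axis) for 5 pairs of near copies or rows of the same name, each row joined by a line. In 4 pairs both rows are lower with BaP; in the rpl37 pair the row of high value is lower and the row of low value is higher.

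Ribosomal proteins whose symbols lie outside the pattern were lower too. The gene rpsa had 32474 normalized reads with DMSO and 20704 with BaP (a ratio of 0.638). The gene rack1, for the scaffold protein on the head of the small subunit, had 26212 and 18665. The gene faua, which encodes a ribosomal protein fused to a ubiquitin-like protein, had 6023 and 4267. All 4 genes of this list were lower by at least 20% (24.1% of all genes) and 1 of them, rpsa, by at least 1.5-fold (11.5%). Both rpsa and rack1 had mean values above 10000. Among other genes of such value, which include both, these shares were 63.7% and 43.1%. Rows noticed after their values had been seen were RPL41, with 11583 and 8262 normalized reads, and the second fau copy faub, with 218 and 237. So was CABZ01079011.1, with 425 and 386. The deposited annotation describes it as ribosomal protein S27, whereas the other annotation names it rps27l, a symbol that the selection leaves out.

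The genes left out for their function or name gave mixed values. The paralogue rpl22l1 had 1814 and 1377 normalized reads in the DMSO and BaP libraries, whereas rpl7l1 had 306 and 338 and rps19bp1 297 and 344. Of the genes for S6 kinases, which phosphorylate rps6 protein, rps6kb1a had 213 and 396 (1.86-fold higher, 1.62 to 2.14) and rps6kb1b 923 and 743. The other 9 rps6k genes lay between -0.21 and 0.29 in log2 ratio.

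Genes of other steps of protein synthesis and turnover were read beside the members, from lists of textbook membership, each read against 24.1% of all genes that were lower by at least 20% and 17.7% that were higher by at least 25%. The counts of lower and higher genes in these lists use these limits. Dividing each library by its total moves every list's median up by 0.17, as it does that of all genes. The lists differed in direction. Mitochondrial ribosomal proteins, which build the separate ribosome of the mitochondrion, were mostly higher where the cytosolic ones were lower. Of 74, 63 were above a ratio of 1, and 1 was lower and 26 were higher, and the median log2 ratio was 0.23, or 0.40 after division by totals. Other genes with a mean value of 100 to 1000 had a median log2 ratio of -0.05 as deposited. All 74 genes had values below 1000, whereas 75 members had a mean of at least 1000, so list and value are not separated here. The highest were mrpl10 (102 and 257 normalized reads in the DMSO and BaP libraries) and mrpl12 (318 and 633). The lowest were mrpl32 (431 and 335) and mrpl2 (662 and 566).

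Ribosome biogenesis factors, which process ribosomal RNA and assemble the subunits in the nucleolus, were not lower by the median of the list. Of 108 rows, 8 were lower and 27 higher, with a median log2 ratio of 0.10, or 0.27 after division by totals. The ratio of their summed values, in which genes of high value weigh most, was 0.896 as deposited, against 0.890 over all genes tested. List and value are thus not separated in the comparison with the members. The highest were rrs1 (141 and 264 normalized reads in the DMSO and BaP libraries) and urb2 (139 and 246). The lowest among those with a sum of at least 100 were rsl1d1 (3063 and 2191) and ncl (8480 and 6148), which encodes nucleolin.

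Translation factors were mixed. Of 65, 19 were lower and 13 higher, and the median log2 ratio was -0.16, or 0.01 when libraries were divided by their totals. The ratio of their summed values, in which genes of high value weigh most, was 0.807 as deposited, against 0.890 over all genes tested. The initiation factor genes eif4a2 (1021 and 639 normalized reads in the DMSO and BaP libraries) and eif4a1a (858 and 1768) stood at opposite ends. Of elongation factor genes, eef1db had 2889 and 1908 and eef1a1b 342 and 606. The main one by value, eef1a1l1, chosen after its value was seen, had 122668 and 90686, a log2 ratio of -0.44.

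The 28 other genes whose mRNAs carry a TOP motif in mammals had a median log2 ratio of -0.32, or -0.15 after division by totals, with 13 lower and 0 higher. This list shares genes with those of the translation factors and of the ribosomal proteins outside the pattern. The lowest were vim, for the filament protein vimentin (2114 and 935 normalized reads in the DMSO and BaP libraries), and rpsa, and the highest impdh2 (329 and 388) and eif4bb (1594 and 1808).

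Proteasome subunits, which degrade proteins tagged with ubiquitin, were mostly higher. Of 41, 28 were higher and 1 lower, and the median log2 ratio was 0.38, or 0.55 after division by totals. Among those with a sum of at least 100, the highest were psmd8 (776 and 1187 normalized reads in the DMSO and BaP libraries) and psmd4a (204 and 305). At the low end psmb10 had 55 and 55 and psma1 1044 and 1120. The 1 lower gene was psmb12, at 10 and 4.

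**Figure D4:**
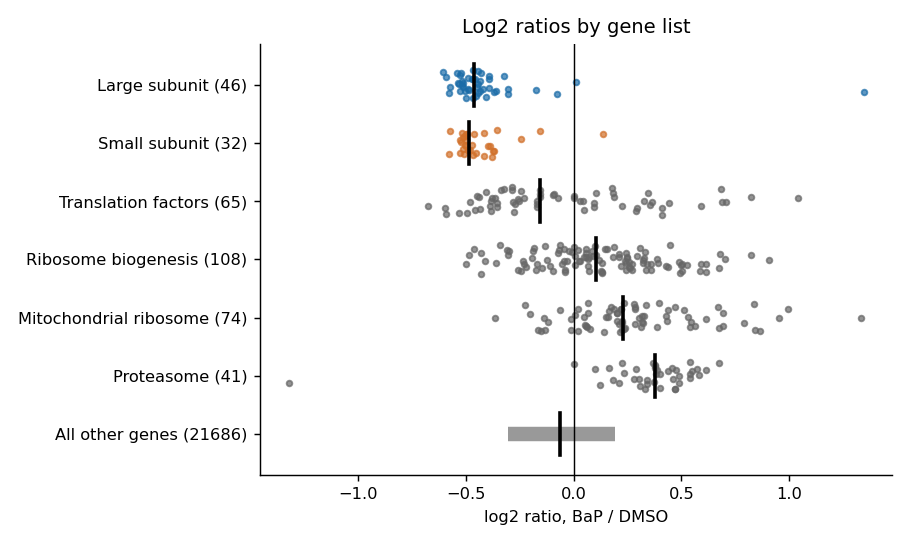
Log2 ratio, BaP over DMSO, of each gene (points) of both ribosomal subunits and of 4 lists, with the number of genes in brackets and the median of each as a black line; for all other genes the grey bar spans the middle of the distribution, from the lower to the upper quartile. The large and small subunit cluster near -0.46 and -0.49, and the mitochondrial ribosomal protein and proteasome lists centre at 0.23 and 0.38.

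Regulators of growth upstream of ribosome synthesis gave no single direction. Of 27 genes for mTOR pathway members and other growth regulators, such as the myc genes, 10 were lower and 3 higher. Their median log2 ratio was -0.24, or -0.07 after division by totals. Of the sestrin genes, whose products restrain mTOR, sesn3 was the lowest of the list and sesn2 the highest. The gene sesn3 had 1047 and 544 normalized reads in the DMSO and BaP libraries and sesn2 had 56 and 118. Another sestrin gene of the list, of higher value than both, was lower. Also low was akt1s1 (3591 and 2070), for an inhibitory partner of mTOR. Named here for their role and with their values seen, the kinase gene mtor had 894 and 850 and larp1, for the TOP-binding protein, 483 and 522.

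Markers of several tissues differed between the libraries as well, counted here by any ratio below 1, which 56.4% of all genes had. Most markers of muscle, pancreas and keratinocytes had mean values of at least 10000. Of the other genes of that value, which include these markers, 83.3% lay below 1. All 6 skeletal muscle markers were lower in the BaP library (their summed share of all values went from 2.99% to 2.02%), and so were all 6 of exocrine pancreas (1.7% to 0.79%). Of keratinocyte markers 5 of 6 were lower (1.41% to 0.545%), of hepatocyte markers 5 of 6 (0.278% to 0.189%), and all 6 rows for photoreceptors (0.154% to 0.103%). Of neuron markers 5 of 6 were below 1 too, with a median log2 ratio of -0.16, while their share went from 0.182% to 0.185%. Of lens markers 2 of 6 were below 1 (0.0188% to 0.0228%), and of cycling cell markers 4 of 6 (0.0139% to 0.0121%). Among erythrocyte markers slc4a1a had 154 and 620 normalized reads and alas2 71 and 396, while the adult globins hbba1, hbaa1, hbba2 and hbaa2 were at 0 or 1. The part of these tissues in the ribosomal protein values was not tested, and in RNA of whole larvae fewer cells of a type cannot be told apart from less RNA per cell.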

How the data were processed

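RNA of whole larvae was measured in 2 mRNA libraries, 1 per treatment, each of 4 pooled biological replicates, per the labels. The submitters' processing notes name Trimmomatic 0.38, STAR 2.6.1d and featureCounts 1.6.3, and the builds GRCz11 and danRer11, without roles. The deposited values are a score, namely normalized read counts that the authors rounded to whole numbers, and the method of scaling is not stated. They sum to 13443263 (DMSO) and 11968060 (BaP). The low values repeat at a step that gave estimates of 19804000 and 21996000 reads. From these the 95% Clopper-Pearson intervals of ratios were made, widened for rounding. They cover counting error only, since each treatment has 1 library. No molecular identifiers were used, so reads copied from the same molecule could not be told apart.

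Genes with a sum of at least 10 were compared as the log2 ratio of BaP over DMSO as deposited, with a 0 set to 3 reads. A fold of at least 1.5 was counted as a difference, and a smaller fold (20% lower or 25% higher) and 2-fold were also read. With 1 library per group no test was possible and no p-value is given. Alternatives were 3 other scalings, removal of the trend with value, 2 pseudocounts, filters and folds, leaving out near copies, and, chosen after seeing the data, leaving out 2 rows of uncertain name and the trend of other genes. The members and the gene lists were chosen with earlier results of these data known, and the line at a mean of 1000 after seeing values. The rule for naming took in rpl37, members past 1.5-fold, the 8 highest and 8 lowest ratios per subunit, and the 5 highest and 5 lowest values. It also took in stalk proteins, near copies and ubiquitin fusions. Of each longer list it took the 2 highest and 2 lowest ratios with a sum of at least 100. Lists of 10 or fewer were to be named in full. Most tissue markers are instead given by counts and shares, and a list of p53 response genes is not reported here. Coordinates are those of the deposited table, which names no build. All 78 gene IDs had a name in a second annotation, which gave 2 of them the name of another protein. Some genes are not reported here by name. The scripts were tested on simulated data and ran under Python 3.11.15 with pandas 2.3.3, scipy 1.17.1, matplotlib 3.10.9 and numpy 2.4.6.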

Additional observations from a re-analysis of the deposited data

How the results depend on the processing

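No paired analysis was possible because each treatment has 1 library, and for the same reason no replicate could be left out. Of 87 recomputed values 34 moved by more than counting error, or for counts by more than 1.5 times. The log2 values among them kept their sign, while counts and standard deviations cannot change theirs. The filters on the sum could not alter the members, whose smallest sum was 235. The members' median log2 ratio, -0.47 as deposited, was -0.30 with libraries divided by their totals, -0.40 by median of ratios, -0.40 by trimmed mean of M values, -0.11 with the trend on value removed and -0.21 with the trend of other genes removed. The log2 ratio of summed values, -0.48, was -0.31, -0.42, -0.42, -0.10 and -0.21 in the same order. Members lower by 1.5-fold, 2 as deposited, were 0 under each of these 5, 1 without near copies, 69 at the limit of 20% and 0 at 2-fold. Members higher, 1 as deposited, were 0 without near copies and 0 without the 2 rows of uncertain name. The difference between subunit medians, 0.026, was 0.046 without near copies and 0.0071 by summed values. The standard deviation of the log2 ratios, 0.239, was 0.197 with the trend removed, 0.204 with that of other genes removed, 0.115 without near copies, 0.118 without the 2 rows, and 0.0771 from the median absolute deviation. Over all genes, 1984 higher became 1203 with a sum of at least 100, 3845 at the smaller fold and 817 at 2-fold, and 2501 lower became 1642 with division by totals, 1282, 5247 and 948. The causes of the shifts with scaling were not tested. The spread between animals cannot be had from these libraries.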

Other observations

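Several members hold genes of small nucleolar RNAs, which guide the modification of ribosomal RNA and are cut from introns of their hosts. Within rpl3, rps12, rpl4, rps7, rpl23 and rpl13 lie 9 such rows. Their normalized read counts came to 32 with DMSO and 39 with BaP in sum, the largest single value being 23, so in these mRNA libraries they were too low to compare with their hosts.

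Of the 78 members, 19 overlap another row of the table and 10 overlap a row of the opposite strand. All of rps12, one of the least shifted members, lies within zgc:153284 on the opposite strand, which had 75 and 83 normalized reads in the DMSO and BaP libraries. The gene rpl30 shares its strand with rida (648 and 404), and rpl39 with upf3b (665 and 564). The part of shared reads in the members' values was not tested.

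The members lie on 24 chromosomes, and 75 of the 78 rows carry the KEGG annotation for the ribosome. Their median gene span was 5676 bases, against 16397 over all genes tested. Among the 100 highest values of a library, 22 were members with DMSO and 20 with BaP.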
